A study of Mus musculus with 13 samples.

Results

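The genes described here store iron in ferritin, carry it there and release it again. Fth1 and Ftl1 encode the heavy and light subunits of ferritin, Ncoa4 the receptor that sends ferritin to the lysosome, and Pcbp1 and Pcbp2 the chaperones that hand ferrous iron to ferritin. They were chosen by symbol, without reference to their measured values, and are 5 of the 35013 gene symbols in the deposited table. All 5 were among the 16468 genes with enough counts to be tested.

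The data are 13 kidney libraries from female mice, made from newly transcribed RNA that was tagged with 4-thiouracil in cells expressing uracil phosphoribosyltransferase (Uprt). Every mouse carried a tamoxifen-inducible Cre placed behind the megalin gene (Megalin3'Cre-Ert), which is active in the proximal tubule, together with a floxed-stop Uprt allele, and the methods give tamoxifen to all. In the 4 Spns1 KO libraries both Spns1 alleles were floxed (Spns1 flox/flox) beside Uprt flox/+. The 5 WT libraries carry the genotype label Spns1 WT, whereas the methods describe a floxed allele beside an intact one (Spns1 flox/+), again with Uprt flox/+. The 4 FeO libraries share the WT genotype label and received 12 mg of iron as iron sucrose by injection on each of 3 days, 1 week before the kidneys were taken. The labels call this model dietary and give the dose as iron sucrose, whereas the methods give it as elemental iron. No age is given. The libraries held between 23068023 and 71296474 counts. Spns1 itself, an endolysosomal transporter, did not separate the groups: it spanned 36.6 to 59 CPM (counts scaled to the library total and by TMM factors) in the libraries labelled Spns1 KO, 39.2 to 62.9 CPM in WT and 39 to 58.7 CPM in FeO. Between the libraries labelled Spns1 KO and WT, the log2 fold change was -0.31 (standard error 0.18), with an adjusted p = 0.225 by the quasi-likelihood method of edgeR after Benjamini-Hochberg adjustment. The paper reports that Spns1 RNA and protein were lost in kidneys of Megalin3'Cre-Ert mice with both Spns1 alleles floxed. Its floxed allele has loxP sites around exon 3, while the main transcript has 12 exons and the counts cover the whole gene. Whether such counts would show the deletion was not tested. The library labelled Spns1 KO 4 had the highest Spns1 of its group, 59 CPM, and stood apart for several genes below.

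Ferritin is a hollow shell in which iron is kept as a mineral. The heavy subunit oxidises ferrous iron at the point of entry and the light subunit promotes mineral growth inside. Iron regulatory proteins bind a stem-loop at the start of both ferritin messages, the iron-responsive element, and hold back translation when iron is scarce. When iron is needed, Ncoa4 binds the heavy subunit and brings the shell into autophagosomes, a process named ferritinophagy. A proximal tubule cell takes up filtered iron-binding proteins through megalin, so it handles iron from the urine side as well as from blood.

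The iron-responsive elements are shown because both ferritin messages are known for them and because they act on translation, which counts of RNA do not measure. The loop is in capitals. Positions are in GRCm38 from the GENCODE M21 annotation, and both stretches lie in the 5′ untranslated region of the main transcript, at bases 84 to 113 of Fth1 (chr19:9982729-9982758, plus strand) and bases 75 to 104 of Ftl1 (chr7:45459781-45459810, minus strand).
Fth1: ggtttcctgcttcaaCAGTGCttgaacgga
Ftl1: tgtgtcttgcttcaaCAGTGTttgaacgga
The elements are identical at 26 of 30 bases. The letters alone are no rare find: a C, then 5 bases of any kind, then CAGTGN occurs within the first 200 bases of 7.61% of 21923 main transcripts. Among the other members it stands before the coding sequence in Ncoa4 and Pcbp2 and is absent from Pcbp1, and whether those matches fold into an element was not examined.

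Both ferritin genes were higher in each model of iron load than in WT. Fth1 (ENSMUSG00000024661, chr19:9980598-9985098, 4 exons in its main transcript) stood at 675, 632, 485, 602 and 858 CPM in WT 1 to 5. It stood at 1547, 2137, 1963 and 892 CPM in the libraries labelled Spns1 KO 1 to 4 and at 1679, 1615, 2711 and 1897 CPM in FeO 1 to 4. Neither model overlapped WT, although the library labelled Spns1 KO 4 lay just above the highest WT library. Fth1 rose 2.51-fold in Spns1 KO (log2 fold change 1.33, standard error 0.26, adjusted p = 0.00245) and 3.04-fold in FeO (1.60, standard error 0.26, adjusted p = 0.000469), both from edgeR's quasi-likelihood test. Ftl1 (ENSMUSG00000050708, chr7:45457944-45459884, 4 exons in its main transcript) stood at 788, 712, 527, 585 and 677 CPM in WT 1 to 5. It stood at 1815, 2300, 2534 and 949 CPM in the libraries labelled Spns1 KO 1 to 4 and at 1837, 1662, 1944 and 1336 CPM in FeO 1 to 4. Again neither model overlapped WT, and the library labelled Spns1 KO 4 was the lowest of either model. Ftl1 rose 2.89-fold in Spns1 KO (log2 fold change 1.53, standard error 0.25, adjusted p = 0.000821) and 2.58-fold in FeO (1.37, standard error 0.25, adjusted p = 0.000811). For each of these 4 differences an exact two-sided permutation test over libraries gave p = 0.0159, the smallest that 4 against 5 libraries allow; 15 such tests were made on the 5 genes. Nothing in the labels says whether libraries of a group came from separate mice, so these p-values measure the spread between libraries.

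**Figure D1:**
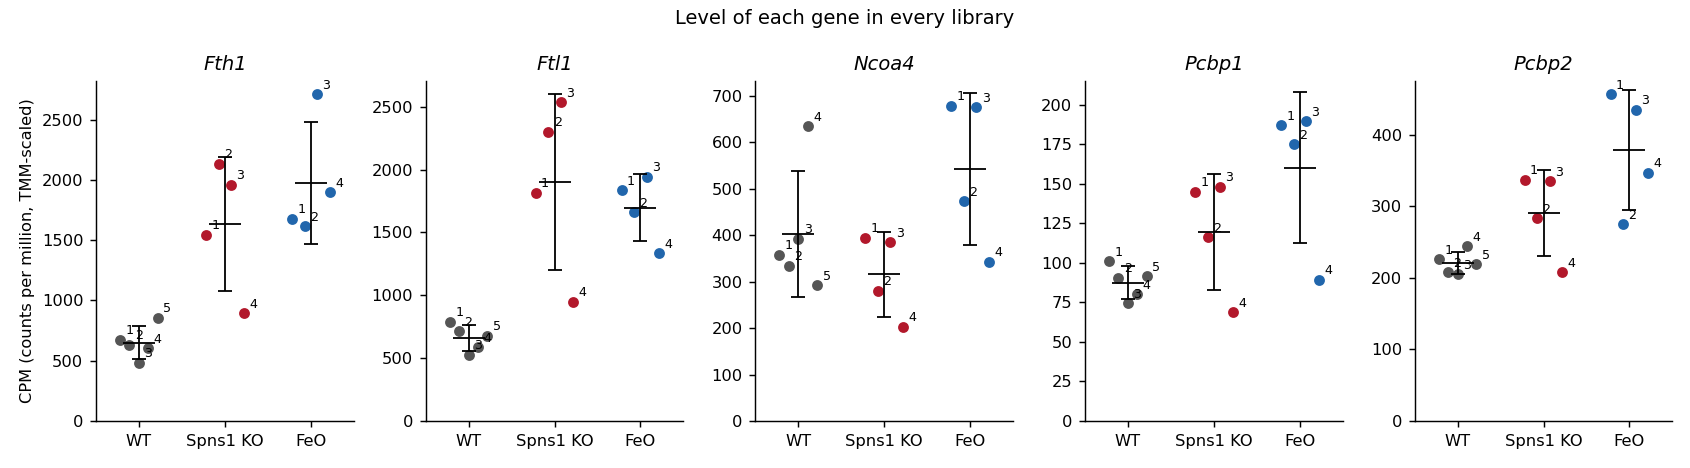
CPM of Fth1, Ftl1, Ncoa4, Pcbp1 and Pcbp2 in each of the 13 libraries, with a panel and a linear axis from 0 for each gene; points are libraries numbered by replicate, bars the group mean ± SD. Fth1 and Ftl1 lie above WT in every Spns1 KO and FeO library, with Spns1 KO 4 the lowest of its group for all 5 genes, whereas Ncoa4 overlaps between the groups.

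These are the 2 members called upregulated in Spns1 KO (adjusted p under 0.05 and log2 fold change above 0.5), where 14.1% of all tested genes were called upregulated. In FeO the called members are 4, with Pcbp1 and Pcbp2 added, where the share over all tested genes was 22.4%. No member was called downregulated in either model, against 7.6% and 19.7% of all tested genes; at an unadjusted p under 0.05, too, 0 members were lower in either model by edgeR, DESeq2 or limma-voom. Genes with every Spns1 KO library above every WT library made up 13.1% of those tested, and for FeO the share was 16.9%; the shares lying below every WT library were 9.38% and 16.4%. Scaling by library totals alone moved the median log2 fold change over all genes from -0.045 to -0.18 in Spns1 KO and the upregulated share of its calls from 65% to 45.4% (from 45.9% to 34.3% for Spns1 KO against FeO). Under that scaling Fth1 and Ftl1 stood at 1.20 and 1.41 in Spns1 KO, both still called. The WT libraries served in both comparisons, so their fold changes are not independent of each other.

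The libraries were also compared directly. Fth1 in Spns1 KO differed from FeO by -0.27 on the log2 scale (standard error 0.27, adjusted p = 0.515) and Ftl1 by 0.16 (standard error 0.27, adjusted p = 0.699). None of the 5 members was called by edgeR in this comparison (1, Ncoa4, at an unadjusted p under 0.05, and 1 by DESeq2), in which 6.81% of tested genes were called higher and 8.05% lower in Spns1 KO. No member was free of overlap between the models either, whereas every Spns1 KO library lay above every FeO library for 8.25% of tested genes and below for 9.1%. Leaving out the library labelled Spns1 KO 4 brought Fth1 to -0.069 and Ftl1 to 0.39 in the same comparison. The spread within Spns1 KO was wide, with an SD of 554 CPM around a mean of 1635 for Fth1 and 701 around 1900 for Ftl1, and that library was the lowest for both.

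Correcting each library for a trend of counts with the length and GC content of transcripts lowered the ferritin differences most. Under it the log2 fold change of Fth1 was 0.87 in Spns1 KO and 1.13 in FeO, and that of Ftl1 was 1.00 and 0.91, and all 4 remained called (adjusted p between 0.00258 and 0.016 from edgeR). Both transcripts are short, at 929 and 968 bases.

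Both subunits together took 0.136 ± 0.0241% of the counts of a WT library (SD, n = 5). The share was 0.338 ± 0.122% for Spns1 KO and 0.362 ± 0.0281% for FeO (SD, n = 4 each). The lowest share in either model, 0.173% in Spns1 KO 4, was next to the highest in WT, 0.172% in WT 5. Per kilobase, the order of the subunits depends on the transcript taken. With the main transcripts, in WT, Fth1 averaged 700.2 ± 146 and Ftl1 679.5 ± 107 CPM per kb (SD, n = 5), whereas with the longest coding transcript Fth1 averaged 435 ± 90.8. Among 16187 genes with a known length, Fth1 ranked between 18 and 36 and Ftl1 between 18 and 34 over all 13 libraries, so ferritin was among the most abundant tagged messages already in WT.

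Cells can change ferritin's make-up as well as its amount, since shells rich in heavy subunit take up iron faster. The ratio of Fth1 to Ftl1 counts was 0.857, 0.888, 0.92, 1.03 and 1.27 in WT 1 to 5. It was 0.852, 0.929, 0.775 and 0.94 in the libraries labelled Spns1 KO 1 to 4 and 0.914, 0.972, 1.39 and 1.42 in FeO 1 to 4. FeO thus split into a pair of libraries near the WT median and a pair above every WT library, while Spns1 KO stayed within or just below WT. The mean log2 ratio in Spns1 KO differed from that in FeO by -0.40 (exact permutation over libraries, two-sided, p = 0.0857, or 0.476 adjusted over 6 ratio tests, where 0.0286 is the smallest p that 4 against 4 libraries allow). Against WT the difference was -0.17 in Spns1 KO (exact p = 0.238) and 0.23 in FeO (exact p = 0.222), so no change in the balance of the subunits passed the test.

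**Figure D2:**
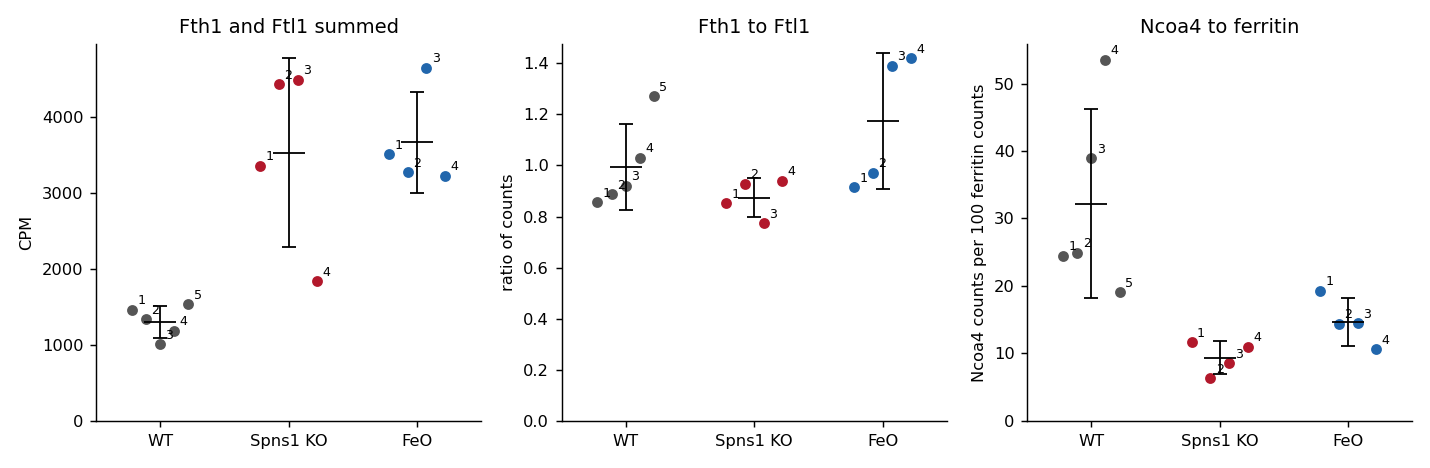
Left, summed CPM of Fth1 and Ftl1; middle, ratio of Fth1 to Ftl1 counts; right, Ncoa4 counts per 100 ferritin counts; points are libraries numbered by replicate, bars the group mean ± SD, all axes linear from 0. The sum averaged 1308 CPM for WT, 3535 CPM for Spns1 KO and 3670 CPM for FeO, the ratio overlapped between all groups, and Ncoa4 per 100 ferritin counts was at most 11.7 in Spns1 KO and at least 19.1 in WT.

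The mouse genome holds many copies of the ferritin genes, and reads can be shared with them. Of the 31-base words of the Ftl1 main transcript, 80.6% also occur in at least 1 of 17 other genes of the table, Ftl1-ps1 foremost, whereas for Fth1 the share is 1.67%. The rows named as copies held few counts all the same: those of Ftl1 came to between 0.0232% and 0.182% of the Ftl1 count over the libraries, and those of Fth1 to at most 0.0634%. Ftl1-ps1 (chr13:74399694-74407346) had 56 to 112 counts in Spns1 KO, 19 to 42 in WT and 10 to 14 in FeO. Its log2 fold change came to 1.27 for Spns1 KO (adjusted p = 0.0116 from edgeR) and -1.02 in FeO (adjusted p = 0.0303), opposite in sign. Adding the rows named as copies, 3 for each gene, to their parent genes left Ftl1 at 1.53 and 1.36 in Spns1 KO and FeO, and Fth1 at 1.33 and 1.60. Genes that share words with Ftl1 but are not named as copies, such as Gm15590, were not added. Their part in the Ftl1 counts was not examined. The mitochondrial ferritin gene Ftmt was listed at 0 in every library and was not tested.

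Since the subunit genes rose together, short motifs were looked up in their RefSeq promoter windows (GRCm38.p6), which run from before the start site to shortly after it, on both strands. Both windows hold a CCAAT box (CCAAT), found in 37.4% of 32851 promoters, and a GC box (GGGCGG), found in 35.7%. The TGACNNNGC core of the antioxidant response element is found in neither ferritin window, while it occurs in that of Ncoa4 and in 12.4% of all promoters. Sequence outside these short windows was not searched, so an element farther from the start site would have been missed.

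Ncoa4, which selects ferritin for autophagy, did not pass the test in either model. Ncoa4 (ENSMUSG00000056234, chr14:32159865-32179855, 10 exons in its main transcript) stood at 358, 334, 393, 635 and 293 CPM in WT 1 to 5. It stood at 395, 280.3, 385 and 203 CPM in the libraries labelled Spns1 KO 1 to 4 and at 679, 473, 676 and 343 CPM in FeO 1 to 4. WT 4 was higher than the other WT libraries, and FeO 1 and 3 lay above all of WT, while the Spns1 KO libraries lay inside or below it. The log2 fold change was -0.35 in Spns1 KO (standard error 0.27, adjusted p = 0.362 from edgeR) and 0.43 in FeO (standard error 0.27, adjusted p = 0.203). Set directly against FeO, Spns1 KO differed by -0.78 (standard error 0.29, adjusted p = 0.0754, between 0.0307 and 0.28 over all alternatives). This difference was called by DESeq2 and when WT 4 or FeO 4 was left out. Without WT 4, Ncoa4 was also called upregulated in FeO, at 0.67 (adjusted p = 0.0407 from edgeR).

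**Figure D3:**
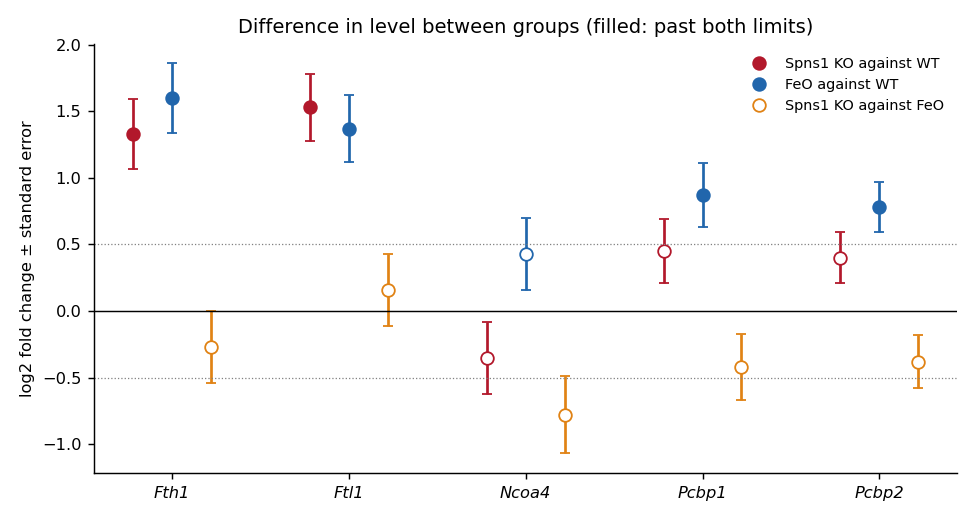
Log2 fold change ± standard error of the 5 genes in 3 comparisons from edgeR's quasi-likelihood fit of all 13 libraries; filled points passed both limits (adjusted p under 0.05 and a log2 fold change beyond 0.5, the dotted lines), open points did not. Fth1 and Ftl1 are filled against WT in both models and Pcbp1 and Pcbp2 in FeO, and no gene is filled for Spns1 KO against FeO.

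Much of the Ncoa4 message also exists as a processed copy. Ncoa4-ps (chr12:119260978-119262855, a single-exon processed pseudogene of 1878 bases in GENCODE M21) aligns to Ncoa4 over its whole length and is identical at 1876 bases. RefSeq draws the copy longer, at chr12:119260933-119264275. The bases that differ, A1358G and G1579A (counted from 1 at the 5′ end of the main Ncoa4 transcript, Ncoa4 base first), lie in the coding sequence and are shown in capitals because the gene and the copy differ nowhere else in these 1878 bases.
Ncoa4, chr14:32176524-32176548: gagaaggaagccAtgtataaatggc
Ncoa4-ps, chr12:119262277-119262301: gagaaggaagccGtgtataaatggc
Ncoa4, chr14:32176745-32176769: agagtggcttatGgggcctacgtgc
Ncoa4-ps, chr12:119262498-119262522: agagtggcttatAgggcctacgtgc
Of the 31-base words of the GENCODE copy 96.6% occur in Ncoa4, and 53.9% of those of Ncoa4 occur in that copy. The longer stretch that RefSeq draws was not compared.

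The copy drew 3056, 3073, 2476, 14 and 2142 counts in WT 1 to 5. It drew 11038, 3570, 3507 and 3560 counts in the libraries labelled Spns1 KO 1 to 4 and 33, 1622, 1110 and 570 in FeO 1 to 4. WT 4 and FeO 1, which had almost none, were also the highest Ncoa4 libraries of their groups. As a share of both rows the copy took 23.3 to 29.4% in Spns1 KO, 0.0778 to 22.1% in WT and 0.159 to 10% in FeO, a measure chosen after its values were seen and given without a test. Every Spns1 KO share lay above every WT share, and 4 of the 5 WT shares lay above every FeO share. The fold changes of Ncoa4 and of its copy ran in opposite directions in each model, with the copy at 0.77 in Spns1 KO (standard error 1.04, adjusted p = 0.618 from edgeR) and -1.19 in FeO (standard error 1.08, adjusted p = 0.384). With both rows added into a single gene, Ncoa4 differed from WT by -0.13 in Spns1 KO and 0.28 in FeO, and Spns1 KO from FeO by -0.41 (adjusted p = 0.729, 0.351 and 0.28 from edgeR). The split of the deposited counts is uncertain between the gene and its copy.

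**Figure D4:**
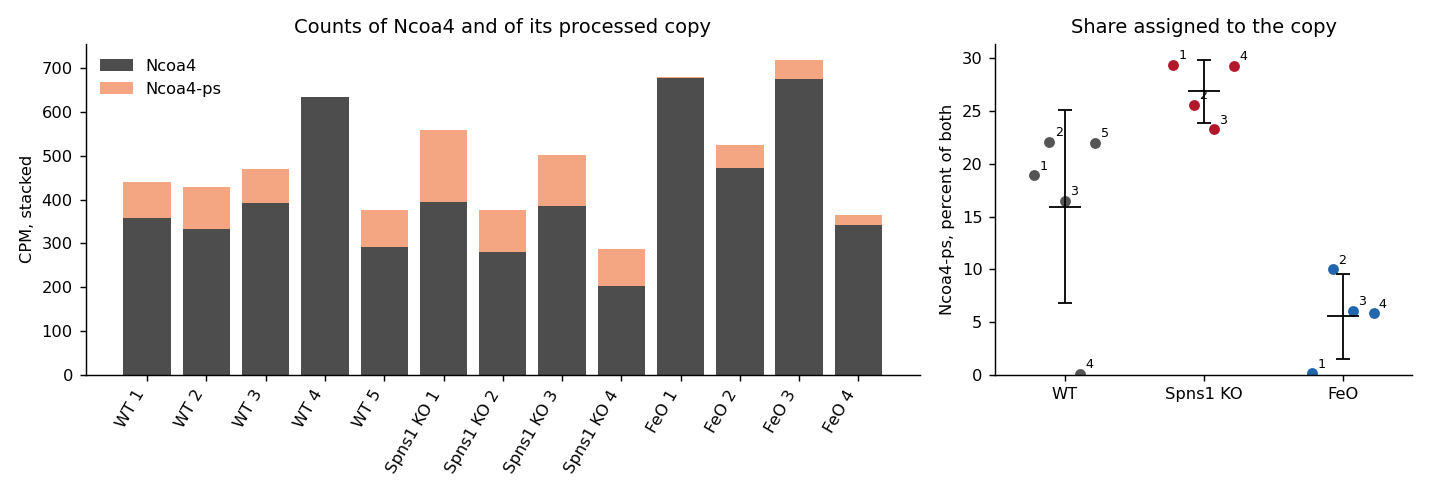
Left, CPM of Ncoa4 (dark) and of its processed copy Ncoa4-ps (light) stacked for each of the 13 libraries; right, the copy as a percentage of both, with points numbered by replicate and bars for the group mean ± SD, axes linear from 0. The copy's share averaged 26.9% in Spns1 KO, 15.9% in WT and 5.53% in FeO, and was close to 0 in WT 4 and FeO 1.

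Ncoa4 was also set against the counts of the ferritin genes whose product it carries. There were 24.5, 24.9, 38.9, 53.5 and 19.1 Ncoa4 counts per 100 ferritin counts in WT 1 to 5. The figures were 11.7, 6.32, 8.56 and 11 in the libraries labelled Spns1 KO 1 to 4 and 19.3, 14.4, 14.5 and 10.6 in FeO 1 to 4. All Spns1 KO libraries lay below all WT libraries, and FeO overlapped WT only through FeO 1. With the copy added to Ncoa4, the mean was 37.3 ± 12.2 over WT (SD, n = 5), 13 ± 3.81 over Spns1 KO and 15.5 ± 3.31 over FeO (SD, n = 4 each). This ratio was not tested, since it restates the ferritin differences beside a gene that did not pass.

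The chaperones were upregulated in FeO. Pcbp1 (ENSMUSG00000051695, chr6:86524492-86526321, a gene of a single exon) stood at 101, 90.5, 74.3, 80 and 91.4 CPM in WT 1 to 5. It stood at 145, 116, 148 and 68.7 CPM in the libraries labelled Spns1 KO 1 to 4 and at 187, 175, 189.6 and 89.2 CPM in FeO 1 to 4. In each model 3 libraries lay above all of WT and replicate 4 lay within it or below. Pcbp1 rose 1.83-fold in FeO (log2 fold change 0.87, standard error 0.24, adjusted p = 0.00799 from edgeR), and by 1.10 on the log2 scale without FeO 4. The exact two-sided permutation test over libraries gave p = 0.0635 for Pcbp1. The libraries labelled Spns1 KO gave a log2 value of 0.45 (standard error 0.24, adjusted p = 0.177), which became a call of 0.64 when the library labelled Spns1 KO 4 was left out (adjusted p = 0.0274).

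Pcbp2 (ENSMUSG00000056851, chr15:102470539-102500061, 14 exons in its main transcript) stood at 226, 208, 205, 244 and 219 CPM in WT 1 to 5. It stood at 337, 283, 335 and 208 CPM in the libraries labelled Spns1 KO 1 to 4 and at 457, 275, 435 and 347 CPM in FeO 1 to 4. All FeO libraries lay above WT (exact two-sided permutation test, p = 0.0159), as they did for 16.9% of all tested genes. In Spns1 KO only replicate 4 fell inside the WT range. Pcbp2 rose 1.72-fold in FeO (log2 fold change 0.78, standard error 0.19, adjusted p = 0.00383 from edgeR). In Spns1 KO the value was 0.40 (standard error 0.19, adjusted p = 0.13), which became a call of 0.53 without the library labelled Spns1 KO 4 (adjusted p = 0.0297). Between the models Pcbp1 differed by -0.42 and Pcbp2 by -0.38 on the log2 scale (standard errors 0.25 and 0.20, adjusted p = 0.254 and 0.196), so a difference between Spns1 KO and FeO in the chaperones was not shown. Under the length and GC trend the FeO values fell to 0.63 for Pcbp1 and 0.51 for Pcbp2, still called (adjusted p = 0.0458 and 0.0282).

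Pcbp1 has a single exon and Pcbp2 has many, and the proteins are close relatives. The ratio of Pcbp1 to Pcbp2 counts averaged 0.398 ± 0.0504 over the WT libraries (SD, n = 5), with 0.403 ± 0.0509 for Spns1 KO and 0.435 ± 0.156 for FeO (SD, n = 4 each). The exact permutation p of the 3 differences was 0.81 or higher, although FeO spread from 0.257 in FeO 4 to 0.637 in FeO 2. Their RefSeq promoter windows share a stretch that is identical at 36 of 40 bases, at chr6:86526195-86526234 on the minus strand for Pcbp1 and chr15:102470478-102470517 on the plus strand for Pcbp2. In GENCODE M21 the main Pcbp1 transcript starts before this stretch, so there it is part of the message. Only 0.167% of the 31-base words of Pcbp1 occur in another gene. For Pcbp2 the share is 34.9%, with Map3k12, whose annotation overlaps it, in the lead.

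Ordered by CPM per kb of main transcript, the ferritin subunits stood far above the rest in every group. In WT, Pcbp2 averaged 147 ± 10.4, Ncoa4 121 ± 40.4 and Pcbp1 47.7 ± 5.63 CPM per kb (SD, n = 5), so Pcbp2 and Ncoa4 did not differ beyond their spread. In FeO the same 3 genes averaged 252 ± 55.8, 162 ± 49.2 and 87.5 ± 26.1 CPM per kb (SD, n = 4), and in Spns1 KO 194 ± 40.3, 94.4 ± 27.3 and 65.3 ± 20.1. The order of Pcbp2 and Ncoa4 depends on the transcript taken: with the longest coding transcript of each, WT levels were 68.4 and 99.1 CPM per kb.

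Over the 13 libraries, Fth1 and Ftl1 were the most alike pair of members, with Pearson's r of 0.943 in log2 CPM, and Pcbp1 and Pcbp2 had an r of 0.808. Ncoa4 was least like the ferritin genes, at 0.216 with Fth1 and 0.17 with Ftl1. These values describe libraries that share 3 groups and their differences, so r reflects the group means as well as the spread within groups. Among 11830 genes averaging 100 counts or more, those most like Fth1 were Gstp1, a glutathione transferase (r 0.984), Myl12b and Rnasek (both 0.982). Those most like Ftl1 were Hint1 (0.979), Prkcsh and Timm13, the last a chaperone of mitochondrial import (both 0.978). No correction for length and GC content was made here. Gstp1, Rnasek and Hint1 have short main transcripts, of 821, 611 and 636 bases, whereas Myl12b, Prkcsh and Timm13 have 2143, 2012 and 1225. Ncoa4 was most like the kinase gene Stk24 (0.972), Eaf1 and Galnt4 (both 0.95). Pcbp1 was most like Coq9, of coenzyme Q synthesis (0.983), Ehd1 (0.973) and Ubac2 (0.968), and Pcbp2 most like Skap2, Khdrbs3 (both 0.989) and Ndfip1 (0.988).

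The surrounding pathway was described with a list of 36 genes for ferritin shells, iron chaperones, ferritinophagy, control of the ferritin message, and iron entry and exit, of which 35 were tested. Leaving aside the 5 members, 6 of 30 were upregulated and 0 downregulated in Spns1 KO, beside 14.1% and 7.6% of all genes tested, with a median log2 fold change of 0.20 against -0.045 over all genes tested. In FeO, 13 of 30 were upregulated and 3 downregulated, beside 22.4% and 19.7% of all genes, with a median of 0.52 against -0.011. In Spns1 KO the count of 0 downregulated genes came from edgeR with both limits; 4 were lower at an unadjusted p under 0.05, and 3 were called by DESeq2 and 1 by limma-voom. Without the library labelled Spns1 KO 4, the upregulated genes of the whole list, members included, numbered 13 in Spns1 KO instead of 8. Over all tested genes, upregulated calls numbered 3006 instead of 2325.

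Of the 4 relatives and partners of the chaperones other than the members, 1 was upregulated in Spns1 KO and 2 in FeO. The shares over all genes tested were 14.1% and 22.4%. Bola2, which works with Glrx3 in handling iron-sulphur clusters, rose in Spns1 KO (log2 fold change 1.38) and in FeO (1.15). Glrx3 rose in FeO by 1.00 and stood at 0.27 in Spns1 KO, and Spns1 KO differed from FeO by -0.73 (adjusted p = 0.024 from edgeR, called in 16 of 23 alternatives). Pcbp3, a relative of the chaperones, stood at -0.30 in Spns1 KO and 0.49 in FeO, the latter just short of the fold change limit (adjusted p = 0.016 from edgeR) and called in 7 of 23 alternatives. The models differed for it by -0.79 (adjusted p = 0.00686 from edgeR), averaging 24.9 ± 1.51 CPM for Spns1 KO and 43.2 ± 9.04 CPM for FeO (SD, n = 4 each).

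Of the 12 ferritinophagy genes other than Ncoa4, 3 rose in Spns1 KO and 7 rose in FeO, where 2 fell; the background of upregulated genes was 14.1% for Spns1 KO and 22.4% for FeO, and that of downregulated genes for FeO was 19.7%. Those of Spns1 KO were Gabarap (1.15), Gabarapl2 (0.86) and Map1lc3a (0.86), which encode ubiquitin-like proteins of the autophagosome membrane. The same genes rose in FeO by 1.66, 1.34 and 1.67, together with Gabarapl1 (1.10), Map1lc3b (0.67) and the conjugation machinery genes Atg5 (0.70) and Atg7 (0.55). Herc2, a ubiquitin ligase that marks Ncoa4 for degradation in iron-replete cells, fell by 1.01 on the log2 scale in FeO, and Rb1cc1, a scaffold of autophagy initiation, by 0.71. Herc2 differed between the models by 0.68 (adjusted p = 0.0413), Map1lc3a by -0.81 (adjusted p = 0.0466) and Gabarapl1 by -0.75 (adjusted p = 0.0432), with FeO the farther from WT for all 3; these differences were called in 13, 12 and 12 of 23 alternatives, and Atg7 in FeO in 14. Corrected for length and GC content, Herc2 stood at -0.22 and Rb1cc1 at 0.11 in FeO, neither called, and Map1lc3a in Spns1 KO at 0.32.

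Of 7 genes that control the ferritin message, none was called in Spns1 KO by edgeR, DESeq2 or limma-voom. By edgeR, 14.1% of all tested genes were called upregulated there and 7.6% downregulated. The 1 gene lower in Spns1 KO at an unadjusted p under 0.05 was Nfe2l2. In FeO, where those shares were 22.4% and 19.7%, Keap1 rose by 0.56. Bach1, a repressor of the ferritin and heme oxygenase genes, fell by 1.07 on the log2 scale in FeO. Corrected for length and GC content, Bach1 stood at -0.62 and was no longer called. The iron regulatory protein genes Aco1 and Ireb2 stood at 0.33 and -0.18 in Spns1 KO and at 0.071 and -0.54 in FeO. Ireb2 in FeO was not called by edgeR (adjusted p = 0.0556) but was called in 6 of 23 alternatives. With the length and GC correction, Aco1 and Ireb2 stood at 0.44 and 0.28 in Spns1 KO and at 0.22 and 0.14 in FeO, none of them called. Hmox1, which frees iron from heme, varied too widely to be placed, from 46.1 to 952 CPM within Spns1 KO.

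Among genes of iron entry and exit, Cd63, a tetraspanin of vesicles that carry ferritin out of cells, rose by 1.79 in Spns1 KO and 1.21 in FeO. Slc11a2, the divalent metal transporter, rose in Spns1 KO by 0.79 and stood at -0.25 in FeO, and the models differed by 1.04 (adjusted p = 0.00277 from edgeR). The exporter gene Slc40a1 and the ferritin receptor gene Timd2 rose in FeO by 0.71 and 1.29. These calls held in 13 and 18 of 23 alternatives. Timd2 was close to the floor, with 643 counts over all libraries. It spanned 0.504 to 1.39 CPM in WT and 0.426 to 3.71 CPM in FeO, so the groups overlapped. Tfrc, the transferrin receptor, stood at -0.71 in Spns1 KO and -0.60 in FeO and was not called by edgeR (adjusted p = 0.0539 and 0.0636), but it was called in 8 and 6 of 23 alternatives.

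**Figure D5:**
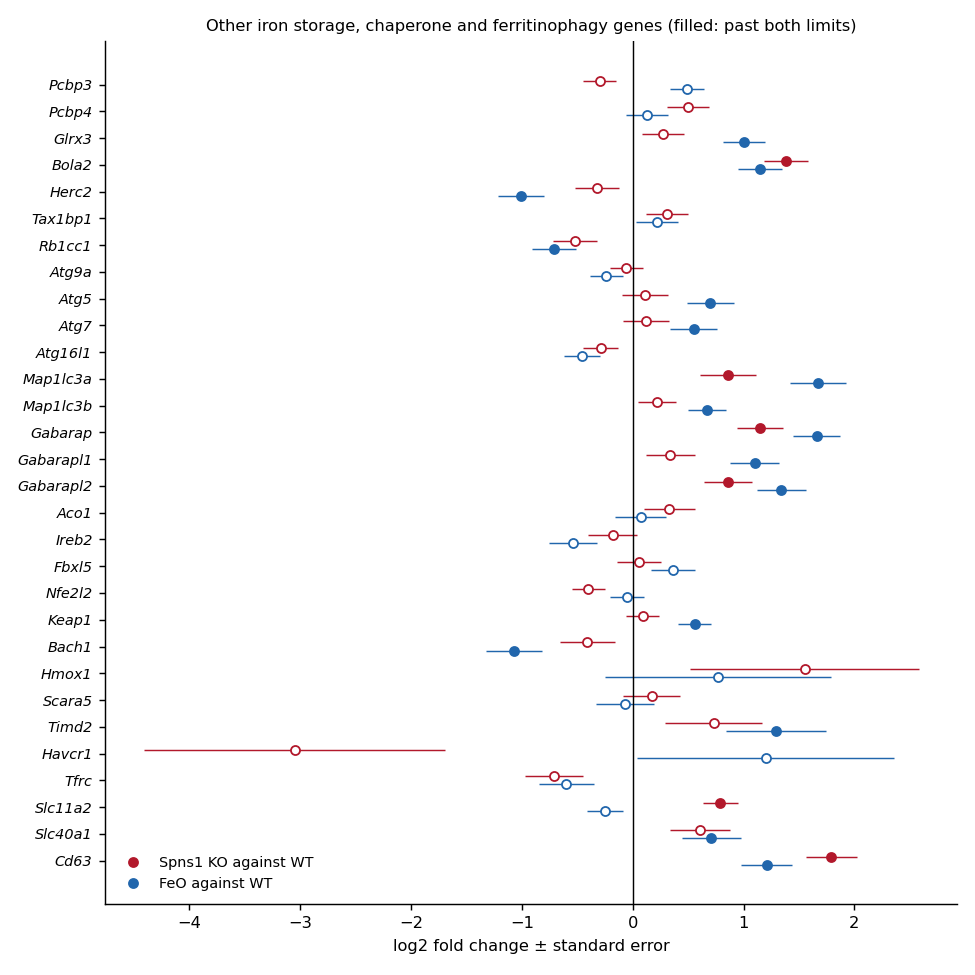
Log2 fold change ± standard error against WT of the 30 tested genes of the iron storage list other than the 5 members, in Spns1 KO (red) and FeO (blue), from edgeR's quasi-likelihood fit; filled points passed both limits. Filled points of Spns1 KO are 6, all to the right of 0, and those of FeO are 16, of which Herc2, Rb1cc1 and Bach1 lie to the left.

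Macrophages and red-cell precursors hold much ferritin, so their markers were read beside the ferritin genes. The summed level of 10 macrophage genes spanned 55 to 71.1 CPM in WT, 75.9 to 126 CPM in Spns1 KO and 98.4 to 179.8 CPM in FeO, and 1 of the 10 was called upregulated in Spns1 KO and 6 in FeO, with none downregulated in either. Over all genes tested the upregulated shares were 14.1% and 22.4% and the downregulated shares 7.6% and 19.7%. Single macrophage genes ranged from Marco at 0.027 to 2.37 CPM and Adgre1 at 0.656 to 3.55 CPM to Csf1r at 33.4 to 67.4 CPM and Lyz2 at 2.33 to 89.3 CPM. The summed level of 6 erythroid genes spanned 9.4 to 36.5 CPM in WT, 51.8 to 175 CPM in Spns1 KO and 26.3 to 238 CPM in FeO, with all 5 tested upregulated in Spns1 KO and 3 in FeO, while 0 of them were downregulated. The summed level of 10 proximal tubule genes, among them Lrp2, Cubn and Slc34a1, spanned 3687 to 5221 CPM in WT, 7281 to 8376 CPM in Spns1 KO and 2173 to 5228 CPM in FeO, with 8 upregulated in Spns1 KO, and 2 upregulated and 1 downregulated in FeO. Genes of the loop, distal tubule and collecting duct summed to between 1875 and 5178 CPM over all libraries, so messages of other segments were captured too; of 8 tested, 3 were called upregulated and 1 downregulated in Spns1 KO, and 4 upregulated in FeO. Of 5 podocyte genes 2 and 3 were called upregulated in Spns1 KO and FeO, and none downregulated. Of 6 endothelial genes 1 was called upregulated in each model and 1 downregulated in FeO, with sums of 209.8 to 269.7 CPM in WT, 246 to 295 CPM in Spns1 KO and 198 to 358 CPM in FeO. The part of these lists in the ferritin differences was not tested. In libraries made from a whole kidney, more cells of a type and more RNA per cell cannot be told apart.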

How the data were processed

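Thiol-tagged mouse kidney RNA of 13 libraries was biotinylated, captured on streptavidin, selected for poly-A and sequenced in paired-end reads. The authors deposited an estimated count per gene symbol and library, without normalization. The table is named for kallisto, and the submitters' processing notes list bcl2fastq 2.19, kallisto 0.44.0, DESeq2 and GRCm38, whereas the methods describe STAR alignment and HTSeq counting; the strand setting is not given in the sources used here. All values were whole numbers. Groups follow the labels.

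Counts were scaled with TMM factors in edgeR 4.0.16 (R 4.3.3), and the 16468 genes kept by filterByExpr were tested in a single quasi-likelihood fit of all 13 libraries. A call needed a Benjamini-Hochberg adjusted p under 0.05 over all tested genes and a log2 fold change beyond 0.5. Log2 CPM used a prior count of 2. Ratios had 0.5 added to each count and, like single levels, were compared by exact permutation (scipy 1.17.1). Alternatives used DESeq2 1.42.0, limma-voom 3.58.1, other scalings, no filter, correction for a trend with length and GC content (mgcv 1.9.3), copies summed, and each library left out. Coordinates and transcripts are from GENCODE M21, promoters from RefSeq (GRCm38.p6), and 98.3% of tested symbols had a length. Copies were sought as shared 31-base words. The script was tested on simulated counts.

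The members were the 5 named symbols. The storage list, the marker lists and the rule for named genes (members, the storage list, the 3 genes most like each member, and ferritin copies) were chosen with earlier results of these data known. Same-numbered libraries did not vary together: over 12 pairs the correlation of deviations ran from -0.30 to 0.26. None of the 22 pairs of libraries within a group agreed within sampling noise. Every member had at least 2264 counts in every library.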

Additional observations from a re-analysis of the deposited data

Results flagged for a closer look

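The highest and lowest library of 24 groups of 4 or 5 values were compared with the rest of their group by Dixon's gap test, which chance passes in about 1 in 20 groups. Ncoa4-ps in WT 4, at 0.495 CPM, stood apart from the other WT libraries, which lay between 78 and 94.7 CPM. Pcbp1 in FeO 4, at 89.2 CPM, stood apart from the other FeO libraries, which lay between 175 and 189.6 CPM, and was inside the WT range of 74.3 to 101 CPM.

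Spns1 KO and FeO differed, by edgeR's quasi-likelihood test of the models against each other, for 6 genes of the iron storage list, with Spns1 KO higher where the log2 difference is positive. They were Slc11a2 at 1.04 (adjusted p = 0.00277), Herc2 at 0.68 (adjusted p = 0.0413), Pcbp3 at -0.79 (adjusted p = 0.00686) and Glrx3 at -0.73 (adjusted p = 0.024). Map1lc3a stood at -0.81 (adjusted p = 0.0466) and Gabarapl1 at -0.75 (adjusted p = 0.0432). Over 23 settings each, Slc11a2 and Pcbp3 were called in 23, Glrx3 in 16, Herc2 in 13, and Map1lc3a and Gabarapl1 in 12. None of the 5 members was among them.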

How the results depend on the processing

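The 4 ferritin differences from WT, and those of Pcbp1 and Pcbp2 in FeO, were called in every alternative run. The members called upregulated in Spns1 KO numbered 2 to 4 as each library was left out, and in FeO 4 to 5; members called lower in Spns1 KO than in FeO numbered 0 to 1, and 1 by DESeq2 (Ncoa4 at -0.80). The library left out moved Ncoa4 between 0.31 and 0.67 in FeO and between -0.96 and -0.62 for Spns1 KO against FeO, Pcbp1 in Spns1 KO between 0.33 and 0.64, Pcbp2 in Spns1 KO between 0.32 and 0.53, and Ftl1 in Spns1 KO against FeO between -0.005 and 0.39. For Ftl1 the sign turned only without the library labelled Spns1 KO 3, at -0.005.

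The storage list was less steady, and so were the calls over all tested genes. Its upregulated genes numbered 6 to 13 in Spns1 KO and 13 to 18 in FeO over the libraries left out, its downregulated genes 0 to 1 and 3 to 5, and those higher and lower in Spns1 KO than in FeO 1 to 2 and 1 to 7. The extremes of 6 and 13 came without the libraries labelled Spns1 KO 3 and 4. In those fits 1528 of 16676 and 3006 of 16651 tested genes were upregulated, against 2325 of 16468 with all libraries. Of genes lower in Spns1 KO than in FeO, 4 with all libraries, 1 was left without any of Spns1 KO 1, 2 and 4 and FeO 1 and 3, 2 without WT 1 or WT 2, and there were 7 without FeO 4. Over all tested genes such calls numbered 1325 with all libraries, 654 without FeO 1, 1018 without FeO 3 and 1586 without FeO 4. Downregulated genes of the list in Spns1 KO numbered 3 by DESeq2 and by library totals alone, 1 by limma-voom, 2 with only the compared groups and 1 with the replicate block. Among all tested genes they numbered 1252 in the main fit, 2092 by library totals, 1529 by limma-voom and 1070 with the block. In FeO they numbered 5 by library totals and with the block, and 0 with the length and GC trend removed. For Spns1 KO against FeO, 1 gene of the list was higher by library totals, without the low-count filter and with the trend removed, and 1 was lower with only the compared groups. Genes called higher among all tested numbered 1122 in the main fit, 757 by library totals and 1028 with the trend removed. Those called lower numbered 1325 in the main fit and 620 with only the compared groups. The causes were not tested.

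The replicate numbers did not pair the libraries: 4 of 12 same-number pairs correlated above 0.1, and a library was most like its own number in 3 of 24 cases. With the replicate number as a block, Fth1 stood at 1.39 in Spns1 KO and 1.70 in FeO and Ftl1 at 1.47 and 1.36; no member's call changed. Summing Ncoa4 with its copy, and leaving out WT 4 and FeO 1 together, were chosen after seeing the data; the latter moved Ncoa4 to -0.11 in Spns1 KO and 0.55 in FeO, neither called. Each member had at least 2264 counts in every library, so counting error was small beside the spread between the 4 or 5 libraries of a group.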
